A study of Mus musculus with 8 samples.

Results

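The 10 genes described here belong to the fat cell and were followed across mouse spleen arrays: the transcription factor genes Pparg and Cebpa, the hormone and secreted-protein genes Adipoq, Lep, Retn and Cfd, and the metabolic and surface enzyme or transporter genes Pck1, Slc2a4, Car3 and Aoc3. Features were taken by the gene name in the array tables, and where a gene had several the brightest was chosen by its mean log2 intensity over the 8 arrays. This gave 9 of the 10 genes, out of 24171 named genes measured, through 15 features. Cfd, the gene of adipsin, was not analysed here. The gene set was proposed with earlier results of these arrays known, and the choice of feature used the arrays' own brightness, so the levels below are a description.

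The samples were RNA from spleens of 4 mice labelled as miR-155 knockouts (Mim1-5 and Mim1-6, labelled female; Mim2-2 and Mim2-3, labelled male) and of 4 mice labelled wild type (WT-1 and WT-3, female; WT-2 and WT-4, male). Each spleen was hybridised to its own array with 1 colour, Cy3. The sources used here do not give the strain, the age or the design of the deleted allele, and they name no treatment. Among the knockouts the labelled sex and the name prefix coincide, so a difference between Mim1 and Mim2 arrays cannot be told apart from one between the sexes.

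Fat cells form when Pparg and Cebpa, which switch each other on, drive a shared set of target genes. The mature cell stores triglyceride, takes up glucose in response to insulin, and releases hormones such as adiponectin and leptin. The spleen itself is not a fat-storing organ, but fat tissue lies beside it at the hilum and around the pancreas. Several of these genes are also used elsewhere: Cebpa in myeloid cells, Pparg in macrophages, Slc2a4 and Car3 in skeletal muscle, Pck1 in liver and kidney, and Aoc3 in smooth muscle and endothelium.

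Random probes, the background level, read log2 4.94 to 5.24 on the 8 arrays, whose median intensities ran from 112.1 to 119.1 before the log transform. The 2 Mim2 arrays stood apart from the rest: over all features they correlated with the other 6 at 0.811 to 0.877, while those 6 correlated with each other at 0.911 to 0.943. As to the spleen label, B cell genes had list means of 8.57 to 10.62, and genes that do not mark spleen were bright too: the milk protein gene Csn2 read log2 12.16 to 15.41 on 7 arrays and 8.22 on Mim2-2. The feature of BIC, the transcript that carries miR-155, on chromosome 16 from 84713276 to 84715489, read 5.37, 5.28 and 5.46 on 3 knockout arrays and 7.51 on Mim1-5, against 4.84 to 5.63 in the wild type, and whether its probes lie in the deleted part is not known. The X inactivation transcript Xist had a mean of 10.13 on arrays labelled female and 9.95 on those labelled male, and the Y-linked Ddx3y 7.82 and 7.75, so neither gene told the labelled sexes apart. Ddx3y read 8.39 to 8.83 on the 4 knockout arrays and 6.26 to 7.33 on the 4 wild-type arrays, with no overlap (limma adjusted p = 0.262), and whether the labelled sexes are right was not tested. "Male" and "female" are the labels' words throughout.

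The sequence just before the start of transcription is shown for 3 of the genes whose levels varied most together or for which a motif was found. RefSeq (build GRCm38.p6) held windows from 250 bases before to 50 bases after a start for 7 of the 10 genes, 9 windows in all, with none for Slc2a4, Car3 and Aoc3. Each window was searched on both strands for TTGCGCAA, the palindrome of C/EBP factors, for CCAAT, for CGTCA, the core of the cyclic AMP response element, for AGGTCA, the hexamer of nuclear receptors, and for DR1, a direct repeat of that hexamer with 1 free base, to which PPARG and its partner RXR bind. The 150 bases before the start follow, 5′ to 3′ on the plus strand, with matches in capitals.
Adipoq, chr16:23146386-23146535: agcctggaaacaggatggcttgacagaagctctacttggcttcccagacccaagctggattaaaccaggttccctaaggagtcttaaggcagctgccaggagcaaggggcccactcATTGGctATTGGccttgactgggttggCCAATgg
Lep, chr6:29060071-29060220: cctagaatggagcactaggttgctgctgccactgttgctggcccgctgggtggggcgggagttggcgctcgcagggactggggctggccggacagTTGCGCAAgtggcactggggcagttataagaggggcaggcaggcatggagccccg
Pck1, chr2:173152923-173153072: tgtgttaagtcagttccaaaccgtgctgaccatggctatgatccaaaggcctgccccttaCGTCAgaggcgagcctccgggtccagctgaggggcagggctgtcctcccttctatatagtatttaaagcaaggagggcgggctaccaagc

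The Lep window held TTGCGCAA from base -55 to -48, a match found in 0.183% of all 32851 promoter windows of that length. The Adipoq window held CCAAT 3 times, with 1 copy on the plus strand from -7 to -3 and copies on the minus strand from -34 to -30 and from -27 to -23; 37.4% of all windows hold a CCAAT. The Pck1 window held CGTCA from -90 to -86, as do 20.8% of all windows somewhere. Pparg windows held CCAAT too, so 2 of the 7 genes had a match to it. AGGTCA was found in 2 of the 3 Pparg windows and for no other gene, so in 2 of the 9 windows, against 16.3% of all windows. No DR1 match was found in these 9 windows, and 0.0396% of all windows hold one. A match is a stretch of letters and was not tested as a binding site.

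All 9 measured genes were brighter on both Mim2 arrays than on any of the other 6 arrays. Over all features, 14.2% had this order. The other 6 arrays, knockout and wild type, spanned from 0.72 on the log2 scale for Cebpa to 2.50 for Retn. Adiponectin, carbonic anhydrase 3, the amine oxidase Aoc3 and the gluconeogenic enzyme Pck1 had the widest gaps, with the lower Mim2 array 9.80-fold to 15.0-fold above the highest of the other 6. These values were in view when the gene set was proposed, so the count supports nothing by itself.

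**Figure D1:**
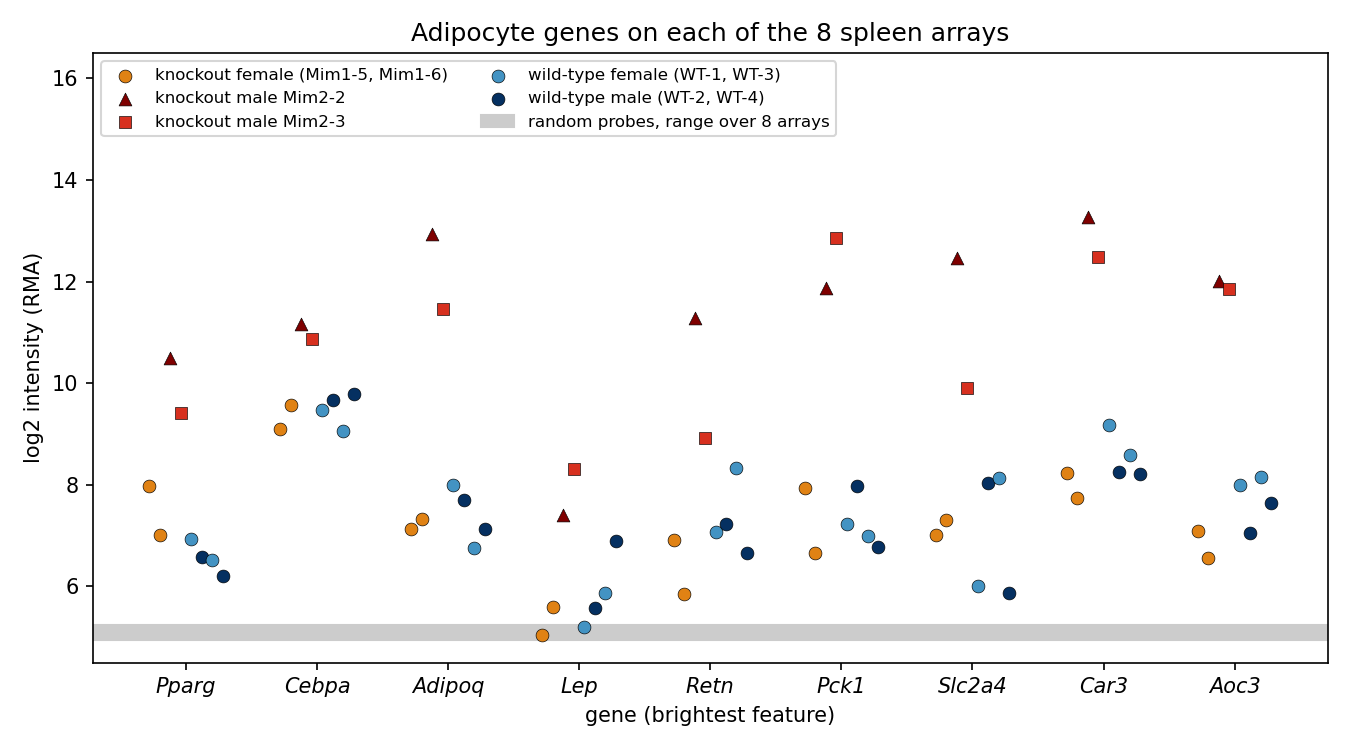
Log2 intensity (y axis) of the brightest feature of each of the 9 genes (x axis); each point is 1 array, coloured by genotype and labelled sex, and the grey band is the range of the random probes. The Mim2-2 and Mim2-3 points lie above the other 6 for each gene, by the widest margin for Pck1 and by the narrowest for Lep.

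Among the regulators, Pparg, the nuclear receptor that commands fat cell formation, lies on chromosome 6 between 115372083 and 115440415 (MM9, as are all positions of features here). It read log2 7.98 on Mim1-5, 7.01 on Mim1-6, 10.50 on Mim2-2 and 9.42 on Mim2-3. On WT-1 to WT-4 it read 6.94, 6.59, 6.52 and 6.21. Every knockout array thus lay above every wild-type array, which held for Pparg alone among the 9 genes and for 4.7% of all features in this direction. The knockout arrays averaged 8.73 ± 1.54 (SD, n = 4) and those of the wild type 6.56 ± 0.30 (n = 4).

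Cebpa, the basic leucine zipper factor that works with Pparg, lies on chromosome 7 from 35904321 to 35906951. It read 9.10 and 9.56 on the Mim1 arrays, 11.16 and 10.87 on the Mim2 arrays, and 9.47, 9.67, 9.06 and 9.78 on WT-1 to WT-4. On the 6 arrays other than Mim2 its values spanned 0.72 on the log2 scale, and over the 4 knockout arrays 2.06, the smallest knockout span of the 9 genes. The Mim1 values lay inside the range of the wild type.

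Among the secreted products, Adipoq, which encodes the insulin-sensitising hormone adiponectin (chromosome 16, 23146693 to 23157824), read 7.14 on Mim1-5, 7.33 on Mim1-6, 12.93 on Mim2-2 and 11.47 on Mim2-3. The wild-type arrays read 8.0, 7.70, 6.75 and 7.13. The Mim1 values fell inside the wild-type range, and the lower Mim2 value stood 11.1-fold above the highest of these 6.

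Lep, the gene of the satiety hormone leptin (chromosome 6, 29018921 to 29022567), lay nearest to its arrays' background. It read 5.05 and 5.60 on the Mim1 arrays, 7.40 and 8.30 on the Mim2 arrays, and 5.20, 5.58, 5.86 and 6.90 on WT-1 to WT-4. Its values on Mim1-5 and WT-1 were close to the random probes, so differences from those arrays are inexact. Mim2-2 exceeded the highest wild-type array, WT-4, by 0.51 on the log2 scale.

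Retn, which encodes the fat cell hormone resistin in mice (chromosome 8, 3655788 to 3659818), read 6.92, 5.84, 11.28 and 8.92 on Mim1-5, Mim1-6, Mim2-2 and Mim2-3. On the wild-type arrays it read 7.07, 7.23, 8.34 and 6.65. Mim2-3 was 0.58 above WT-3, a gap smaller than the 2.50 that the 6 other arrays spanned among themselves.

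Among the metabolic genes, Slc2a4, which encodes GLUT4, the insulin-regulated glucose transporter of fat and muscle (chromosome 11, 69756044 to 69761651), read 7.01, 7.31, 12.46 and 9.90 on the knockout arrays in the same order. Its wild-type values were 6.01, 8.04, 8.14 and 5.88, the widest wild-type spread of the 9 genes (SD 1.24, n = 4). Pck1, the enzyme gene of glyceroneogenesis in fat and of gluconeogenesis in liver (chromosome 2, 172978589 to 172984772), read 7.94, 6.65, 11.87 and 12.85 in the knockout and 7.24, 7.97, 7.0 and 6.77 on WT-1 to WT-4. Slc2a4 on Mim2-3 was 1.76 above the highest wild-type array, and both Mim2 values of Pck1 were at least 3.91 above.

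Car3, the gene of a cytosolic carbonic anhydrase abundant in fat and muscle (chromosome 3, 14863537 to 14872373), read 8.23, 7.73, 13.27 and 12.48 on the knockout arrays and 9.19, 8.25, 8.59 and 8.20 on WT-1 to WT-4. Aoc3, the gene of a surface amine oxidase of fat cells and vessels (chromosome 11, 101192080 to 101200744), read 7.09, 6.55, 12.01 and 11.86 in the knockout and 7.99, 7.06, 8.16 and 7.64 in the wild type. For both genes the Mim1 mean lay below the wild-type female mean, 7.98 against 8.89 for Car3 and 6.82 against 8.07 for Aoc3.

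The spread among the knockout arrays was accordingly wide. The SD over 4 arrays had a median of 2.55 over the 9 genes in the knockout and of 0.52 in the wild type, and it was larger in the knockout for each of the 9. Over all 24171 genes the medians were 0.60 and 0.43, and 65.4% of genes had the larger SD in the knockout. By this SD the members stood between the 81.2nd and the 99.96th percentile of all genes. The 2 Mim2 arrays also differed from each other: Mim2-2 was the higher one for 7 genes, by 2.56 for Slc2a4, 2.36 for Retn and 1.47 for Adipoq on the log2 scale, while Mim2-3 was the higher one for Pck1 and Lep, by 0.97 and 0.90. Aoc3 and Cebpa differed by only 0.15 and 0.29 between them.

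Of the 9 genes, 5 had more than 1 feature, which gives a check within the arrays. Of the 6 dimmer features, 2 had both Mim2 arrays on top. These were the second features of Car3, at 10.12 and 8.60 against at most 7.82 elsewhere, and of Slc2a4, at 7.07 and 7.04 against at most 6.08. The second Cebpa feature read 10.47 on Mim2-2 but 9.34 on Mim2-3, below WT-1 at 9.69. The second Aoc3 feature read 7.70 on Mim2-3 and 6.30 on Mim2-2, where WT-3 had 6.32. For Pck1 both dimmer features differed from the brightest: one read 4.40 on Mim2-3 and 8.16 on WT-3, the other 9.0 on Mim2-2 and 6.85 on Mim2-3 beside 6.96 on Mim1-5. The mean over 8 arrays that chose the features includes the Mim2 arrays and so favours a feature that is bright there.

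**Figure D2:**
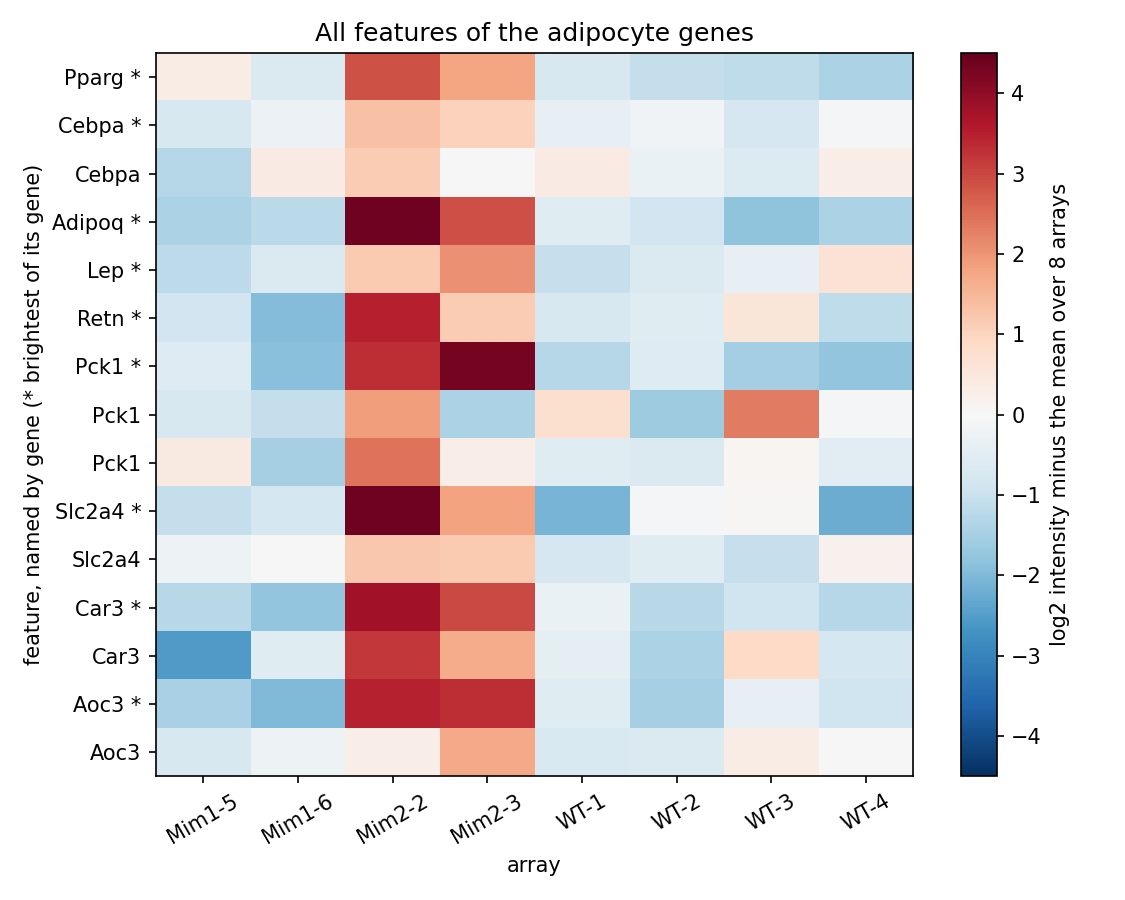
Log2 intensity of the 15 features of the 9 genes (rows, the brightest of each gene starred) minus the feature's mean over the 8 arrays (columns); red is above and blue below that mean. The starred rows are red on both Mim2 arrays, while the dimmer Cebpa and Pck1 rows are near white or blue on Mim2-3.

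The comparison of knockout with wild type was made with limma on all 44170 features, with the labelled sex as a term. None of the 9 genes passed an adjusted p of 0.05, as for 0% of all features, and the adjusted p of the members ran from 0.266 to 0.678. At an unadjusted p under 0.05 there were 3 members, Pparg, Adipoq and Pck1, all higher, where 6.98% of all features were higher at that level. All 9 differences were above 0, with a median of 1.87 on the log2 scale beside 0.06 over all genes. Pparg differed by 2.16 ± 0.58 (SE; limma adjusted p = 0.266), Adipoq by 2.32 ± 0.91 (adjusted p = 0.329) and Pck1 by 2.59 ± 0.90 (adjusted p = 0.301). Without both Mim2 arrays the median was -0.14: Adipoq, Lep, Retn, Car3 and Aoc3 turned below 0, while Pparg differed by 0.77, Pck1 by 0.18, Slc2a4 by 0.08 and Cebpa by 0.06. All knockout arrays left in that fit are labelled female. With sex as a term, its differences are therefore those within females, given below, and not a separate result. With the mean of all features of a gene in place of the brightest the median was 1.10, and without Mim2-2 alone it was 1.16. By that mean of all features Pck1 differed by 0.91 ± 0.72 (SE; limma adjusted p = 0.588).

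A fit of the 4 groups of genotype and labelled sex gave the genotype difference within each sex. Within males, all 9 genes were higher in the knockout and 5 passed, where 0.899% of all features were called higher. The contrast was added after the data were seen. The gene set was proposed with the Mim2 values in view, so these calls are a description. The 5 genes differed as follows: Pck1 by 4.99 ± 0.61 (SE, 2 against 2 arrays; limma adjusted p = 0.0221), Adipoq by 4.79 ± 0.61 (adjusted p = 0.0225), Car3 by 4.65 ± 0.43 (adjusted p = 0.0216), Aoc3 by 4.58 ± 0.39 (adjusted p = 0.0216) and Pparg by 3.56 ± 0.51 (adjusted p = 0.0234). For Pck1 this is 31.8-fold and for Pparg 11.8-fold, on the brightest feature. The dimmer features of the called genes did not pass. Those of Pck1 differed by 1.97 and 1.06 (limma adjusted p = 0.200 and 0.593). The dimmer feature of Car3 differed by 3.525 and that of Aoc3 by 1.33 (adjusted p = 0.0546 and 0.220). The other 4 genes did not pass: Slc2a4 differed by 4.22 ± 1.06, Retn by 3.16 ± 0.82, Lep by 1.62 ± 0.57 and Cebpa by 1.29 ± 0.37 (limma adjusted p = 0.0674, 0.0719, 0.140 and 0.0904). The calls were lost, for the members and for all other features alike, when Mim2-2 or any 1 wild-type array was left out. Members and other features were still called when Mim1-5, Mim1-6 or Mim2-3 was left out. Each such fit leaves 1 array in a group of 2.

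Within females the same genotype difference was called for 0 of 9 genes and for 0% of all features, also with trend and robust variances, and 4 members were above 0 and 5 below. The median was -0.14, and only Aoc3 had an unadjusted p under 0.05, at -1.25 ± 0.39 (limma adjusted p = 0.961). Pparg differed by 0.77 ± 0.51 and Retn by -1.32 ± 0.82. The within-female differences are the same ones as in the fit without both Mim2 arrays above. The test of the difference between the sexes, the interaction, called 0 of 9 members and 0% of all features. Its smallest adjusted p was 0.106, for Aoc3, at 5.84 ± 0.55 on the log2 scale; 8 members had an unadjusted p under 0.05 and were higher, as were 5.26% of all features, and 4 passed with trend and robust variances, where 0.0747% of all features were called higher. The genotype difference is therefore not shown by the main test to differ between the labelled sexes.

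**Figure D3:**
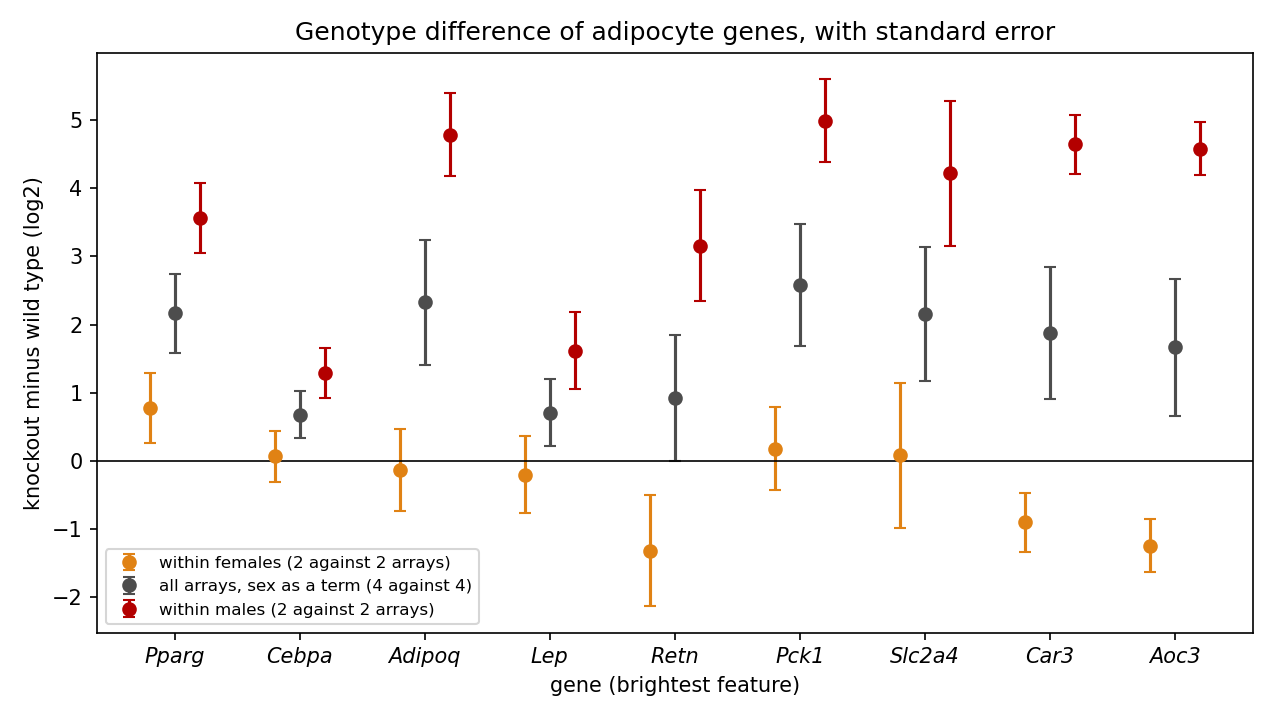
Knockout minus wild type on the log2 scale (y axis) for each gene (x axis), within females, over all arrays with sex as a term, and within males; bars are standard errors from limma. The within-male points run from 1.29 for Cebpa to 4.99 for Pck1 and the within-female points from -1.32 to 0.77.

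Within the knockout, Mim2 minus Mim1 was called for 4 of 9 genes, against 0.172% of all features called higher. Aoc3 rose by 5.11 ± 0.39 (SE, 2 against 2 arrays; limma adjusted p = 0.0221), Pck1 by 5.06 ± 0.61 (adjusted p = 0.0357), Adipoq by 4.97 ± 0.61 (adjusted p = 0.0357) and Car3 by 4.89 ± 0.43 (adjusted p = 0.0353). The other 5 differed by 1.69 for Cebpa to 4.02 for Slc2a4, with adjusted p from 0.0623 to 0.101. Dimmer features of the called genes did not pass. Those of Pck1 differed by 1.92 and 1.12, that of Car3 by 3.96 and that of Aoc3 by 1.47 (limma adjusted p = 0.259, 0.614, 0.0603 and 0.230). By the brightest feature, all 9 genes had an unadjusted p under 0.05, where 7.68% of all features were higher at that level. With any 1 array left out other than Mim2-3 the calls were lost, for the members and for all other features alike. Each such fit leaves 1 array in a group of 2. All 9 genes passed with trend and robust variances, where 0.824% of all features were called higher. In the wild type, male minus female was called for 0 of 9 genes and 0% of all features, with no member at an unadjusted p under 0.05 and 0 called with trend and robust variances. Its median was -0.12, and its range -0.76 for Retn to 0.71 for Lep. The 2 contrasts with Mim2 share those arrays, so their calls are not separate evidence. The gene set was proposed with the values of those arrays in view, so the calls are a description.

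Other genes of the fat cell, on lists drawn up with earlier results of these arrays known, moved in part with the members. Of 18 genes of fatty acid uptake, storage and lipolysis, 10 had both Mim2 arrays on top, and 3 rose in Mim2 against Mim1, with 0 lower: Cidec, which makes large lipid droplets, by 6.45, the hormone-sensitive lipase gene Lipe by 2.02, and the glycerol channel gene Aqp7 by 3.08 (limma adjusted p = 0.0221, 0.0482 and 0.0406). Over all features, 14.2% had both Mim2 arrays on top and 0.172% were called higher in this contrast. The same shares stand beside the list counts below. Cidec read 11.88 and 11.38 on the Mim2 arrays and 5.05 to 6.38 elsewhere. Its Mim1 values, 5.05 and 5.31, lay near the random probes, so the size of its difference is inexact. Fabp4, the fatty acid carrier of fat cells and macrophages, was bright on all arrays, at 14.17 and 13.62 on the Mim2 arrays and 10.97 to 12.71 elsewhere, and did not pass (adjusted p = 0.0579). Plin1, which coats lipid droplets, read 8.74 and 8.98 on the Mim2 arrays and 7.28 to 8.16 elsewhere (adjusted p = 0.332). The list's median was 1.70 in Mim2 against Mim1, beside 4.02 for the members and 0.13 for all genes.

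Of 8 receptor and insulin signalling genes, 1 rose in Mim2 against Mim1 and 0 fell. This was Adrb3, the beta-adrenergic receptor of fat cells, at 10.21 and 9.34 on the Mim2 arrays and 4.28 to 5.58 elsewhere, a difference of 4.42 ± 0.54 (SE; limma adjusted p = 0.0357). It lay near the random probes on the other arrays, above them on 4 of these 6, so the size is inexact. The receptors of the members' hormones and of insulin did not pass. The adiponectin receptor genes Adipor1 and Adipor2 differed by -1.40 and 0.57, the leptin receptor gene Lepr by 0.76 and the insulin receptor gene Insr by 0.21 (limma adjusted p = 0.0953, 0.479, 0.364 and 0.843). Of these, Lepr had the members' order, with 9.53 and 9.69 on the Mim2 arrays and 7.77 to 9.27 elsewhere.

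Of 14 other adipogenic factors and cofactors, 0 passed as higher and 1 as lower in Mim2 against Mim1, the corepressor gene Ncor1, by -2.26 (limma adjusted p = 0.0401). At an unadjusted p under 0.05, 3 were higher and 4 lower. Both Mim2 arrays were on top for 3 of the 14 (21.4%), beside 14.2% of all features. Among these 3, Ebf1 read 10.85 and 9.91 on the Mim2 arrays (limma adjusted p = 0.255). It read 9.30 and 9.48 on the Mim1 arrays and 7.785 to 8.53 in the wild type, so every knockout array lay above every wild-type array. Klf4 read 8.19 and 8.23, and at most 7.16 elsewhere (adjusted p = 0.177). The lipogenic factor gene Srebf1 read 10.03 and 10.51 on the Mim2 arrays and 11.24 to 13.27 elsewhere (adjusted p = 0.217). Of 6 genes that hold back fat cell formation and 12 of other secreted fat cell products, 0 passed in either direction in this contrast (0 and 0 higher, 0 and 0 lower). Among the latter, 4 had both Mim2 arrays on top, and 5 were higher and 1 lower at an unadjusted p under 0.05. The retinol carrier gene Rbp4 read 11.93 on Mim2-2 and 8.68 on Mim2-3, against 4.59 to 7.84 elsewhere (limma adjusted p = 0.138). Lcn2 went the other way, at 9.86 on Mim2-2 and 12.47 on Mim2-3, against 14.14 to 14.82 elsewhere (adjusted p = 0.0794). Of 10 genes of fatty acid and glycerol synthesis 0 passed, and here the Mim2 arrays parted: the list mean was 11.75 on Mim2-2, 9.29 on Mim2-3 and 9.73 to 10.18 on the other 6. Ucp1, the uncoupling protein of brown fat, read 5.57 and 6.40 on the Mim2 arrays and 4.27 to 6.63 elsewhere, and 0 of 9 brown fat genes passed in this contrast.

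Markers of other tissues that use these genes were read on the same arrays. Of 15 skeletal muscle genes, 6 had both Mim2 arrays on top, where 14.2% of all features did, and 0 passed in Mim2 against Mim1. The list mean was 7.08 and 7.19 on the Mim2 arrays and 6.04 to 6.86 elsewhere, and 5 genes were higher at an unadjusted p under 0.05. Among these Casq1, a calcium-binding protein gene of muscle, read 8.03 and 9.60 on the Mim2 arrays and 4.85 to 7.58 elsewhere (limma adjusted p = 0.0989), and Pvalb 7.92 and 8.41 against 5.87 to 7.86 (adjusted p = 0.127). The muscle creatine kinase gene Ckm read 5.81 and 6.12, against 4.28 to 6.05. Liver genes had means of 6.14 and 6.00 against 5.55 to 6.03, with 1 of 15 higher (Apoc3, adjusted p = 0.0416), and the albumin gene Alb exceeded the background on just 3 of the 8 arrays. Endothelial genes had means of 9.78 and 9.61 against 8.63 to 9.19, with 7 of 9 on top in both Mim2 arrays. Smooth muscle genes had means of 8.46 and 8.37 against 7.55 to 8.0, with 4 of 8 in that order. For both lists 0 genes passed. Macrophage genes had means of 10.45 and 10.59, with 9.64 to 10.43 elsewhere, and 6 of 13 had both Mim2 arrays on top, Vcam1 and Marco among them, with 0 passing. Vcam1 read 11.83 and 11.74, with 9.61 to 11.26 elsewhere, and the receptor gene Csf1r read 10.34 and 11.88, with 10.57 to 11.45 elsewhere. Kidney genes, from another tissue that uses Pck1, had means of 6.30 and 6.15, with 5.78 to 6.19 elsewhere. B cell genes had means of 10.62 and 10.42 on the Mim2 arrays, 9.99 and 9.79 on the Mim1 arrays and 8.57 to 8.97 in the wild type, and T cell genes 9.45 and 9.34, then 8.87 and 8.82, then 7.91 to 8.51. Both Mim2 arrays were on top for 7 of 10 B cell genes and 6 of 10 T cell genes. Genes of neutrophils and their precursors had means of 8.04 and 7.56 on the Mim2 arrays, 7.25 and 7.08 on the Mim1 arrays and 7.98 to 8.10 in the wild type. Of these 12 genes 3 had both Mim2 arrays on top and 0 passed in Mim2 against Mim1, with a median of 0.94 and 5 higher and 1 lower at an unadjusted p under 0.05. The alarmin gene S100a8 read 10.99 and 11.74, with 9.45 to 11.05 elsewhere, and the precursor gene Mpo read 5.69 and 5.36, with 5.09 to 7.24 elsewhere.

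Genes of mammary epithelium mostly moved the other way on the same arrays. The mean of 20 genes was 7.35 and 8.18 on the Mim2 arrays and 9.24 to 9.74 elsewhere, with 7 lower and 1 higher in Mim2 against Mim1. Over all 44170 features, 795 were called in this contrast, only 76 of them higher, so most calls were lower. Krt8, a keratin of luminal epithelium, read 8.42 and 8.80 on the Mim2 arrays and 11.91 to 13.0 on the other 6 arrays. The milk protein list differed from this, being low on all 4 knockout arrays. Its means were 8.29 and 9.30 on the Mim2 arrays, 9.71 and 8.71 on the Mim1 arrays and 10.64 to 11.4 in the wild type. In Mim2 against Mim1, 0 of its 11 genes passed. The milk protein gene Csn2 read 8.22 on Mim2-2 and 13.90 on Mim2-3, beside 12.16 to 15.41 elsewhere. Genes of the exocrine pancreas were higher on all 4 knockout arrays, with means of 6.63 to 7.30 against 5.63 to 5.86 in the wild type, and of 7.03 and 7.0 on the Mim2 arrays. The part of these tissues in the members' levels was not tested, and in whole spleen RNA more cells of a type and more RNA per cell cannot be told apart.

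**Figure D4:**
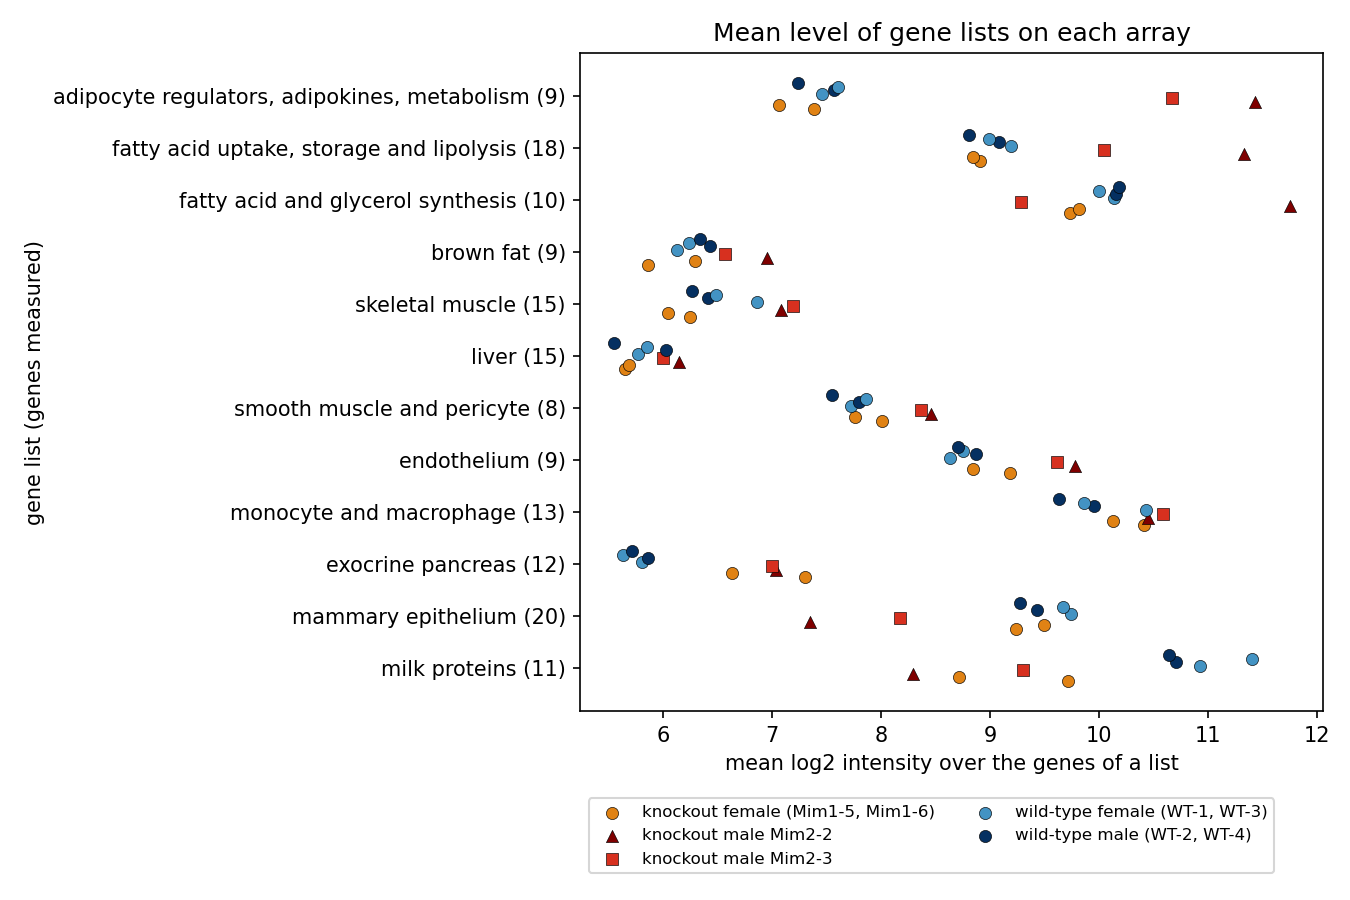
Mean log2 intensity (x axis) of 12 gene lists (y axis, with the genes measured in each) on each array, coloured as to genotype and labelled sex. The members' mean is 11.43 and 10.67 on the Mim2 arrays and 7.07 to 7.60 on the others, while the mammary epithelium list is lowest on the Mim2 arrays.

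Genes with a profile most like that of Adipoq were ranked by the root mean square distance of their log2 values over the 8 arrays, each gene centred on its own mean, among 12085 genes with an SD at or above the median. The nearest gene outside the set was the cysteine dioxygenase gene Cdo1, at a distance of 0.46 on the log2 scale, with 12.41 and 9.92 on the Mim2 arrays and 6.25 to 7.07 elsewhere. Next came Adrb3 (0.58), Cidec (0.71), the glycogen synthase gene Gys2 (0.76) and the predicted gene Gm5600 (0.76). Of the members, Car3 ranked 2nd at 0.46, Aoc3 5th, Pck1 8th, Pparg 20th, Slc2a4 27th and Retn 39th, and Cebpa and Lep lay further off, at ranks 292 and 330. These distances are a description and are carried by the 2 Mim2 arrays.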

How the data were processed

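Spleen RNA of 8 mice was measured on 1-colour NimbleGen arrays. The authors deposited 1 table per array with a linear intensity per feature. RMA, the robust multi-array average, is named in the submitters' processing notes; its version and settings are not given in the sources used here. Per the file headers, 44155 of 44170 features rest on 3 probes and positions are of mouse build MM9. A standard error score deposited by the authors for each feature entered no test. An entry of 5000 random probes gave the background level. The authors' series table holds 21856 of these features, with values within a relative difference of 8.75e-07.

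The log2 of the intensity was used as it stood. Gene symbols came from the tables, updated for lists by Entrez number (21583 of 24203 matched) from RefSeq (GRCm38.p6). Tests were two-sided, with limma 3.58.1 (lmFit, eBayes; R 4.3.3), Benjamini-Hochberg over all 44170 features, threshold 0.05: genotype with sex as an additive term, and a fit of 4 groups for the contrasts within knockout, within wild type, within each sex and for the interaction. The contrasts within each sex were added after seeing the data. The scripts were tested on simulated data. Members, lists and the rule for named genes were chosen with earlier results of these data known. The rule took the members, defining markers and receptors, up to 4 genes per list by p, and the 5 genes nearest to Adipoq; Aqp7, Ncor1, Rbp4, Casq1, Pvalb and S100a8 were named after their values were seen. Alternatives to the sex term, normalization, variance model, weights, floor, filter, feature choice and arrays used were run. Labels name separate spleens, so each array counts as 1 animal, and their number limits the precision.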

Additional observations from a re-analysis of the deposited data

How the results depend on the processing

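Alternatives covered the sex term, quantile normalization, trend and robust variance, array weights, a floor at the random probes, a filter on dim features (above the random probes on at least 4 arrays), the features of the series table, the mean of all features of a gene, and leaving out each array or both Mim2 arrays. Knockout against wild type, male against female in the wild type and knockout against wild type within females called 0 members under every alternative that was run. The median knockout minus wild type difference was 1.87, between 1.10 and 2.51 under the alternatives that kept a Mim2 array (1.16 to 2.51 with 1 array left out), and -0.14 without both Mim2 arrays. Without both, Adipoq, Lep, Retn, Car3 and Aoc3 differed by -0.14, -0.21, -1.32, -0.91 and -1.25, and Retn also turned without Mim2-2, to -0.0011 (up to 1.62 with another array left out). The differences without both Mim2 arrays are those within females, since only knockout arrays labelled female remain. Members called in Mim2 against Mim1 numbered 4, and 9 with trend and robust variance, 8 of 8 measured with the series table (which lacks the Lep feature), and 0 to 5 with 1 array left out. Within males they numbered 5, and 8, 8 and 0 to 7 under the same settings. The interaction called 0, and 4 under each of the first 2 settings. The number of all features called higher rose as well. In Mim2 against Mim1 it was 76 of 44170 in the main fit, 364 with trend and robust variance, and 445 of 21856 with the series table. Within males it was 397, 1255 and 1469, and for the interaction 0, 33 and 18. With 1 array left out of a group of 2, the lone array is assumed to vary like the other groups. Where the members lost all their calls in such a fit, so did all other features. The series table and the filter test fewer features, which changes the adjustment; the cause of the other shifts was not tested. No paired analysis was possible because the knockout mice are numbered within the Mim1 and Mim2 prefixes and the wild-type mice on their own. Lep on Mim1-5 and WT-1 lies near background, which limits its differences.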
